A study of Drosophila melanogaster with 15 samples.

Results

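Genes of serine protease and carbohydrase families known for digestive enzymes were compared across 5 dissected tissues of Drosophila melanogaster larvae. They were taken by symbol: every measured array row annotated to 1 gene whose symbol starts with Jon or Ser and a digit, with Mal-A, Mal-B or Amy-, or ends in Try. The rule found 38 of the 9894 named genes that had a measured row, on 41 rows. They were 15 Jonah (Jon) genes, 9 trypsin (Try) genes, 3 Ser genes, 7 Mal-A genes, 2 Mal-B genes and 2 amylase (Amy) genes. Another 5 genes with such symbols stand in the current gene records and had no row of their own: Jon74E, Mal-A6 and Ser8 were not analysed here, and deltaTry and gammaTry shared 1 row with CG30031.

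All tissues came from wild-type larvae (Canton S) staged to about 18 hours before pupariation. The labels name no mutation and no treatment. The groups were epidermis with its attached muscle (called epidermis from here on), salivary gland, wing disc, midgut and central nervous system, each with 3 arrays of independent samples, which made 15 arrays. Each array held amplified RNA of 1 tissue in the Cy5 dye and RNA of equally staged whole animals in the Cy3 dye. Every value below is therefore the log2 of a ratio, tissue over whole animal, after the median of the array was set to 0. A value of 0 is that of the median feature of the array, called level with whole animal below, and 1 log2 unit is a factor of 2. How many animals went into a sample is not given in the sources used here. RNA of the midgut was also part of the whole-animal reference, and the dyes were not swapped, so ratios to the whole animal can hold an effect of the dye, while differences between tissues share it.

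Trypsins and Jonah proteases are serine proteases: a serine in the active site cuts the peptide bond of food proteins. Trypsins cut after lysine or arginine, and the Jonah genes encode enzymes of the chymotrypsin-like kind that are known from the larval gut. Amylases cut starch into short sugars, and maltases, which the Mal-A and Mal-B genes encode, release glucose from maltose. In the fly, digestive enzymes of these kinds are made by the enterocytes of the midgut, the main site of digestion and absorption, and are secreted into its lumen. A symbol alone does not show that a gene encodes one of them. Most of the genes sit in clusters of close copies, and alphaTry, betaTry, gammaTry and deltaTry, or Amy-p and Amy-d, are so alike that RNA of one copy may bind the row of another. Values of such neighbours are uncertain as separate measurements.

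The arrays measured between 7747 and 13505 of the 14051 rows with any value, with epidermis replicate 3 the lowest and epidermis replicate 2 the highest. Between 31 and 38 of the 38 genes were measured on an array, and 25 were measured on all 15. The number of arrays limits the precision. Epidermis replicate 3 stood apart at the low end: the first percentile of all its values was -4.57, against -4.09 to -2.47 on the other 14 arrays. Over the 25 complete genes its median was -4.39, against -3.14 and -2.80 on the other epidermis arrays. Once a constant fitted for each array was added to the deposited log2 values, low ratios moved in steps of 0.001. On epidermis replicate 3 the value of zetaTry stood for only 2 such steps, that of kappaTry for 6 and that of betaTry for 8. On central nervous system replicate 3 the value of Mal-A2 stood for 7. Values that low are rounded: 1 step is worth 0.74 log2 units for zetaTry there and 0.18 to 0.24 for the other three.

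The midgut label was checked with marker genes. All 4 midgut enzyme markers (Jon99Cii, thetaTry, alphaTry and zetaTry) were above whole animal in midgut, with means of 0.60 to 2.16, but they belong to the genes described here. Of the 4 midgut markers outside them, GATAe, the endodermal GATA factor, was the only one with a row, and its midgut mean was 1.04. Markers of other tissues lay low in the midgut samples: mean log2 ratios to whole animal ran from -4.02 to -1.71 for 3 salivary gland genes, from -4.04 to -1.71 for 5 muscle genes, from -4.25 to -3.13 for 3 fat body genes, from -3.14 to -2.09 for 4 blood cell genes and from -2.56 to -0.70 for 4 epidermis genes. The 3 neuron genes ran from -0.63 to -0.02, the 4 wing disc genes from -3.50 to 0.06 and the 2 Malpighian tubule genes from -1.26 to -0.02, and the 1 trachea gene was at 0.20. Of these genes 25 could be tested in the limma fit against the mean of the other 4 tissues: 0 were higher in midgut, 0 also at an unadjusted p of 0.05, and 9 were lower. Their part in the results below was not tested.

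Transcripts of the group were concentrated in the midgut for nearly all genes that could be tested. Of the 32 genes that were measured on at least 2 arrays of every tissue, 31 were higher in midgut than averaged over the other 4 tissues (limma, adjusted p under 0.05), against 14.2% of the 8432 features tested, and 0 were lower, against 15.5%. At an unadjusted p of 0.05, 32 were higher and 0 lower. Their median difference was 4.70 log2 units, against -0.09 over all features. The counts here and below take Amy-p as the mean of 2 array rows that disagree. Fitted apart in limma, 1 of these rows was lower in midgut (-1.33, adjusted p 9.79e-05). Of the 10 features with the largest midgut difference 4 were of this group, as were 8 of the first 20, 13 of the first 50 and 19 of the first 100. The genes outside the group with the largest differences were CG11912 (6.99), CG6271 (6.14), LysE (5.94), LysS (5.87) and CG5399 (5.85), and LysE and LysS encode lysozymes. Tissues were compared as bulk samples, in which fewer cells of a type and less RNA per cell cannot be told apart, and the p-values rest on the spread among the 3 samples of each tissue.

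In pairs of tissues, 31 of 36 genes were higher in midgut than in epidermis (8.45% of all features), 30 of 35 than in salivary gland (8.55%), 31 of 37 than in wing disc (12.6%) and 31 of 36 than in the central nervous system (12.6%). In each of these pairs 0 were lower in midgut (7.92%, 6.23%, 12.1% and 14.3% of features in the same order), also at an unadjusted p of 0.05. A midgut mean at least 1 log2 unit above each of the other tissues, with each pair past the test, was met by 28 of 32 genes, against 5.94% of features. The 4 tested genes that missed it were Mal-A2, Mal-A3, Mal-A4 and lambdaTry. Amy-p is again taken as the mean of its 2 rows. All 3 midgut arrays lay above all 12 other arrays in 25 of the 25 genes measured on every array, against 12.5% of such features. In 22 of these 25, all midgut arrays were above whole animal and all the others below it, against 7.36%. Counting only the arrays that measured a gene, the same held for 27 of the 38, against 4.11% of features with at least 1 midgut and 1 other value.

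**Figure D1:**
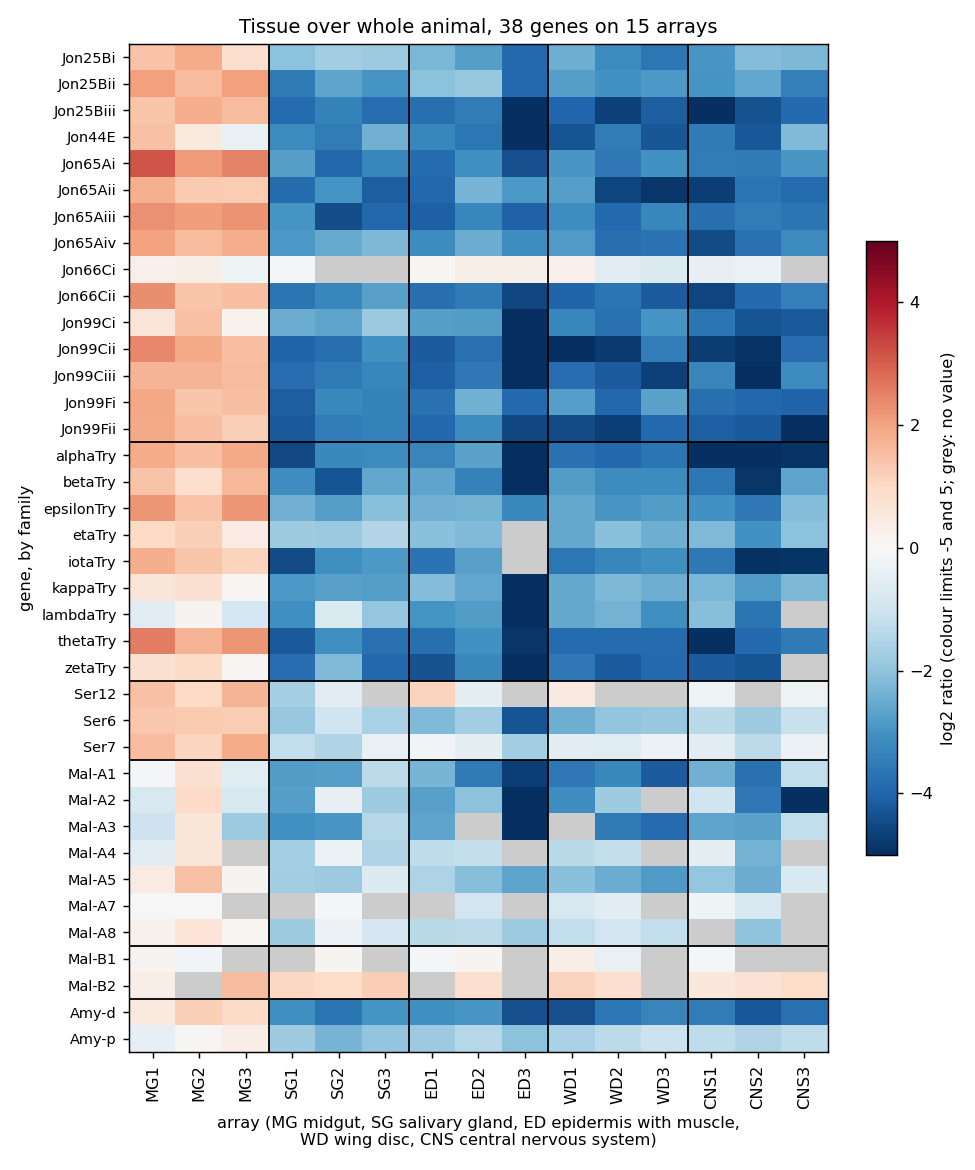
Log2 ratio of tissue over whole animal (colour scale) for the 38 genes (vertical axis, by family) on the 15 arrays (horizontal axis), with cells without a value in grey. The midgut columns lie mostly near or above 0, up to 3.16, and most other cells lie well below 0, with Jon66Ci and Mal-B1 near 0 and Mal-B2 above 0 wherever measured.

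The Jonah genes had the largest median midgut difference of the families. All 14 that could be tested were higher in midgut than the mean of the other 4 tissues, by 3.97 (Jon25Bi) to 6.19 (Jon99Cii) log2 units with a median of 5.34, and all 14 were at least 1 unit above each other tissue. Below, values of a tissue are given in the order of its replicates 1, 2 and 3, and fewer values mean that the other arrays of that tissue had none. Jon99Cii, second of all 8432 features, was at 2.40, 1.90 and 1.50 in midgut, -4.02, -3.76 and -3.03 in salivary gland, -4.15, -3.74 and -5.71 in epidermis, -4.99, -4.79 and -3.46 in wing disc, and -4.76, -4.90 and -3.81 in central nervous system. Its groups did not overlap, and the midgut exceeded the mean of the others by 6.19 (SE 0.39, adjusted p 7.29e-09). Jon65Ai reached the highest single value of the group: 3.16, 2.14 and 2.50 in midgut, -2.77, -3.91 and -3.27 in salivary gland, -3.83, -3.06 and -4.39 in epidermis, -2.92, -3.58 and -3.02 in wing disc, and -3.50, -3.54 and -2.91 in central nervous system. The whole range of the 12 other arrays was below the lowest midgut array, and the difference was 5.99 (SE 0.29, adjusted p 6.49e-10).

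Jon65Aiii, a neighbour of Jon65Ai, had closely matching midgut arrays: 2.30, 2.10 and 2.26 in midgut, -2.96, -4.42 and -3.93 in salivary gland, -4.09, -3.26 and -4.04 in epidermis, -3.13, -3.89 and -3.27 in wing disc, and -3.76, -3.48 and -3.65 in central nervous system. The midgut difference was 5.87 (SE 0.26, adjusted p 2.71e-10), and its lowest value was on salivary gland replicate 2. Jon25Biii was at 1.39, 1.82 and 1.59 in midgut, -3.85, -3.36 and -3.82 in salivary gland, -3.78, -3.50 and -5.90 in epidermis, -3.96, -4.66 and -4.13 in wing disc, and -4.98, -4.35 and -3.89 in central nervous system. It was lowest on epidermis replicate 3, and its midgut difference was 5.78 (SE 0.37, adjusted p 8.02e-09). Differences of the other 10 tested Jonah genes were 5.69 for Jon99Ciii, 5.65 for Jon99Fii, 5.51 for Jon66Cii, 5.16 for Jon65Aii, 5.09 for Jon99Fi, 4.98 for Jon65Aiv, 4.77 for Jon25Bii, 4.18 for Jon44E, 4.06 for Jon99Ci and 3.97 for Jon25Bi. The 2 rows of Jon65Aiv gave 5.69 and 4.27, so the size differed between rows and the direction did not.

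All 9 trypsin genes were higher in midgut, by 2.39 to 6.04 with a median of 4.82. thetaTry ranked at place 5 of all features and was at 2.56, 1.71 and 2.20 in midgut, -4.22, -3.05 and -3.75 in salivary gland, -3.76, -3.02 and -4.85 in epidermis, -3.85, -3.86 and -3.86 in wing disc, and -4.98, -3.90 and -3.52 in central nervous system. The wing disc arrays nearly coincided, and the midgut difference was 6.04 (SE 0.35, adjusted p 2.07e-09). alphaTry was at 1.84, 1.51 and 1.89 in midgut, -4.53, -3.21 and -3.17 in salivary gland, -3.31, -2.68 and -5.46 in epidermis, -3.73, -3.91 and -3.67 in wing disc, and -4.98, -5.19 and -4.89 in central nervous system. Its midgut difference was 5.81 (SE 0.41, adjusted p 1.8e-08), with the lowest mean in the central nervous system. iotaTry was at 1.83, 1.38 and 1.12 in midgut, -4.49, -3.07 and -2.89 in salivary gland, -3.71 and -2.73 in epidermis, -3.61, -3.27 and -3.06 in wing disc, and -3.57, -4.96 and -4.89 in central nervous system. No array outside midgut came above -2.73, and the difference was 5.06 (SE 0.35, adjusted p 3.41e-08).

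betaTry varied more in epidermis than in midgut: 1.42, 0.84 and 1.65 in midgut, -3.10, -4.31 and -2.61 in salivary gland, -2.65, -3.37 and -6.71 in epidermis, -2.80, -3.14 and -3.15 in wing disc, and -3.61, -4.85 and -2.62 in central nervous system. Its value of -6.71 is one of the coarsely rounded ones, and its midgut difference was 4.88 (SE 0.62, adjusted p 1.54e-05). The other trypsins differed by 4.82 (zetaTry, SE 0.75), 4.63 (epsilonTry), 3.37 (kappaTry, SE 0.65), 3.03 (etaTry) and 2.39 (lambdaTry, SE 0.55, adjusted p 0.00384). Without epidermis replicate 3 or any other single array, zetaTry stayed between 4.41 and 5.10 and kappaTry between 2.98 and 3.60. lambdaTry was not past the test against salivary gland (difference 1.47, adjusted p 0.203), where replicate 2 was at -0.72. The 2 rows of epsilonTry gave 5.30 and 3.97. The row shared by deltaTry, gammaTry and CG30031, which is not counted among the 38, was at 1.98, 1.51 and 2.06 in midgut, 5.61 above the mean of the others (SE 0.38, adjusted p 1.17e-08).

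The Ser genes, serine proteases named apart from both families, had a median midgut difference of 2.75 over the 2 that could be tested. Ser6 was at 1.36, 1.32 and 1.28 in midgut, -1.88, -0.998 and -1.61 in salivary gland, -2.22, -1.72 and -4.32 in epidermis, -2.42, -1.95 and -1.88 in wing disc, and -1.35, -1.77 and -1.12 in central nervous system. The midgut arrays lay between 1.28 and 1.36, and the difference was 3.26 (SE 0.37, adjusted p 5.11e-06). Ser7 was at 1.54, 1.07 and 1.85 in midgut, -1.24, -1.51 and -0.38 in salivary gland, -0.15, -0.47 and -1.74 in epidermis, -0.55, -0.59 and -0.31 in wing disc, and -0.57, -1.30 and -0.28 in central nervous system. Its arrays outside midgut lay between -1.74 and -0.15, and the midgut difference was 2.25 (SE 0.31, adjusted p 4.02e-05). Ser12 could not be tested over all tissues and is described with the departing genes.

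Maltase genes of the Mal-A cluster had midgut differences of 1.29 to 3.02 with a median of 2.60 over the 5 that could be tested, and 4 passed. Mal-A1 was at -0.05, 0.76 and -0.59 in midgut, -2.81, -2.75 and -1.31 in salivary gland, -2.33, -3.52 and -4.71 in epidermis, -3.59, -3.21 and -4.15 in wing disc, and -2.42, -3.71 and -1.22 in central nervous system. The midgut lay above all other arrays, by 3.02 against their mean (SE 0.50, adjusted p 0.000206). Mal-A5 was at 0.42, 1.48 and 0.12 in midgut, -1.73, -1.81 and -0.69 in salivary gland, -1.55, -2.13 and -2.65 in epidermis, -2.07, -2.50 and -2.82 in wing disc, and -1.95, -2.46 and -0.75 in central nervous system. The difference was 2.60 (SE 0.36, adjusted p 3.88e-05), and Mal-A5 had the highest mean midgut ratio of the Mal-A genes. Mal-A3 was at -1.04, 0.62 and -1.81 in midgut, -3.04, -2.90 and -1.43 in salivary gland, -2.62 and -5.01 in epidermis, -3.55 and -3.84 in wing disc, and -2.63, -2.68 and -1.24 in central nervous system. Its midgut difference was 2.29 (SE 0.55, adjusted p 0.00545), but midgut replicate 3 lay below salivary gland replicate 3 and central nervous system replicate 3, and the pairs with these tissues were not past the test (adjusted p 0.121 and 0.139).

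Mal-A2 had the largest standard error of the 32 tested genes: -0.80, 0.94 and -0.79 in midgut, -2.77, -0.42 and -1.78 in salivary gland, -2.72, -2.04 and -6.12 in epidermis, -3.11 and -1.78 in wing disc, and -1.02, -3.58 and -6.67 in central nervous system. Midgut and salivary gland overlapped, and its call against the mean of the other 4 (2.66, SE 0.96, adjusted p 0.0479) was the closest to the threshold. It was lost without salivary gland replicate 1 (adjusted p 0.0644) or 3 (0.0606), midgut replicate 1 (0.0686), 2 (0.197) or 3 (0.0888), or central nervous system replicate 2 (0.0605), within a range of 0.00998 to 0.197 over all alternatives. Among its pairs, the one with the central nervous system passed (adjusted p 0.039), and those with epidermis (0.0665), wing disc (0.264) and salivary gland (0.539) did not.

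**Figure D2:**
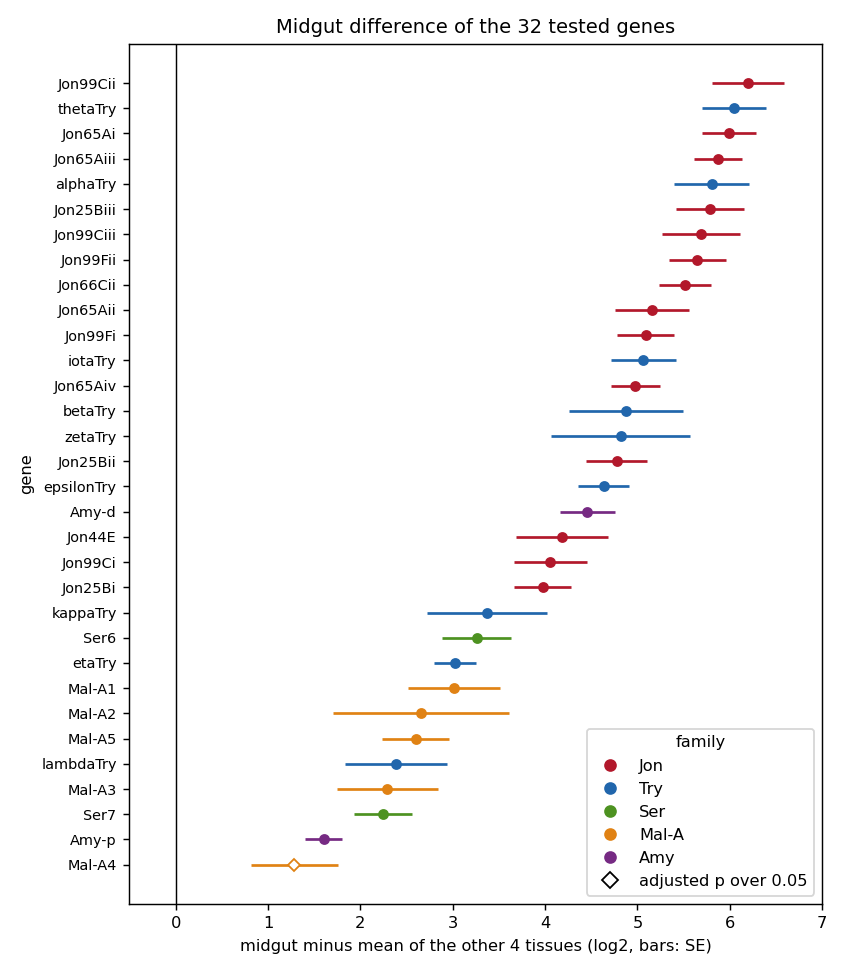
Midgut minus the mean of the other 4 tissues in log2 units (horizontal axis, bars: SE of the fit) for the 32 tested genes (vertical axis), coloured by family, with an open diamond for an adjusted p over 0.05. Jonah genes and trypsins fill the upper end, led by Jon99Cii at 6.19 and thetaTry at 6.04, Mal-A genes lie between 1.29 and 3.02, and Mal-A4 is the open diamond.

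The midgut pattern, in which a gene was highest in midgut and past the test against the mean of the other 4 tissues, was met by 31 of the 38 genes and not by 7. Mal-A4 was tested and did not pass. Mal-A7, Mal-A8 and Ser12 were highest in midgut and were measured on too few arrays to be tested over all tissues. Jon66Ci, Mal-B1 and Mal-B2 had their highest mean in another tissue, and were not testable over all tissues either. With the arrays centred on the features measured on all 15, Mal-A7 joined these 3, and with 1 row kept per gene Amy-p did. Without midgut replicate 1 Mal-B2 was highest in midgut, and without midgut replicate 3 Jon66Ci was. None of the 7 genes was measured on all 15 arrays. Mal-A7 and Mal-B1 had 8, Ser12 10, Mal-A4 and Mal-B2 11, Jon66Ci 12 and Mal-A8 13, while genes of the pattern had 13 to 15. Signal intensities were not seen here, and whether a low signal lies behind flat ratios was not tested.

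Jon66Ci did not share the pattern of the other Jonah genes. Its values were 0.25, 0.29 and -0.20 in midgut, -0.08 in salivary gland, 0.08, 0.28 and 0.30 in epidermis, 0.25, -0.56 and -0.69 in wing disc, and -0.41 and -0.28 in central nervous system. All of them lay between -0.69 and 0.30, with 6 of 12 arrays above 0 and 6 below, and midgut overlapped with epidermis and wing disc. Midgut minus epidermis was -0.11 (95% interval of the fit -0.68 to 0.47, adjusted p 0.863), midgut minus wing disc 0.45 (-0.13 to 1.02, adjusted p 0.268) and midgut minus central nervous system 0.46 (-0.19 to 1.10, adjusted p 0.301). Jon66Cii, the adjacent gene in the records of assembly Release 6, was at 2.33, 1.38 and 1.52 in midgut and between -4.57 and -2.73 on all other arrays, a midgut difference of 5.51 (SE 0.28, adjusted p 6.92e-10).

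Mal-B2 was above whole animal in every tissue. It was at 0.34 and 1.57 in midgut, 1.03, 0.91 and 1.24 in salivary gland, 0.83 in epidermis, 1.11 and 0.84 in wing disc, and 0.53, 0.71 and 0.92 in central nervous system, which is above 0 on 11 of the 11 arrays that measured it. Ratios to whole animal passed the test in salivary gland (1.06, SE 0.21, adjusted p 0.00253), in wing disc (0.97, SE 0.26, adjusted p 0.0107), in midgut (0.96, SE 0.26, adjusted p 0.017) and in the central nervous system (0.72, SE 0.21, adjusted p 0.0168), while epidermis had 1 array. With no dye swap, an effect of the dye cannot be told apart from such ratios. The tissues did not separate: midgut minus salivary gland was -0.11 (-0.84 to 0.62, adjusted p 0.904), midgut minus wing disc -0.02 (-0.82 to 0.78, adjusted p 0.982) and midgut minus central nervous system 0.24 (-0.50 to 0.97, adjusted p 0.682).

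Mal-B1, next to Mal-B2 in the gene order, lay near whole animal wherever it was measured: 0.14 and -0.15 in midgut, 0.15 in salivary gland, -0.04 and 0.14 in epidermis, 0.35 and -0.37 in wing disc, and -0.05 in central nervous system. Midgut minus epidermis was -0.06 (-0.81 to 0.70, adjusted p 0.947) and midgut minus wing disc 0.01 (-0.75 to 0.76, adjusted p 0.993), with salivary gland and central nervous system on 1 array each. Mal-A7 lay near whole animal in midgut and on its 1 salivary gland array, whose sign turned with the centring, and lower in the other tissues: 0.04 and 0.02 in midgut, -0.06 in salivary gland, -0.97 in epidermis, -0.79 and -0.55 in wing disc, and -0.23 and -0.78 in central nervous system. Midgut minus wing disc was 0.69 (-0.01 to 1.40, adjusted p 0.15) and midgut minus central nervous system 0.53 (-0.17 to 1.24, adjusted p 0.265).

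Mal-A8 kept part of the midgut pattern. It was at 0.21, 0.70 and 0.10 in midgut, -1.77, -0.29 and -0.84 in salivary gland, -1.36, -1.33 and -1.81 in epidermis, -1.24, -0.95 and -1.22 in wing disc, and -2.03 in central nervous system. All 3 midgut arrays were above all others, and midgut exceeded epidermis by 1.83 (SE 0.33, adjusted p 0.000902), salivary gland by 1.30 (SE 0.33, adjusted p 0.0128) and wing disc by 1.47 (SE 0.33, adjusted p 0.00362), while the central nervous system had 1 array. Mal-A4 was at -0.57 and 0.60 in midgut, -1.68, -0.30 and -1.49 in salivary gland, -1.29 and -1.19 in epidermis, -1.34 and -1.20 in wing disc, and -0.50 and -2.36 in central nervous system. Midgut replicate 1 lay below salivary gland replicate 2 and central nervous system replicate 1, and the midgut difference of 1.29 (SE 0.47, adjusted p 0.0571) missed the threshold. Without salivary gland replicate 2 the adjusted p was 0.0267, and without epidermis replicate 3, on which Mal-A4 had no value, it was 0.0496, within a range of 0.0267 to 0.0863 over its alternatives.

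Ser12 overlapped between midgut and epidermis. Its values were 1.47, 1.003 and 1.71 in midgut, -1.66 and -0.56 in salivary gland, 1.12 and -0.48 in epidermis, 0.45 in wing disc, and -0.25 and -0.27 in central nervous system. Epidermis replicate 1 lay above midgut replicate 2, and the other epidermis value was below whole animal. Midgut exceeded salivary gland by 2.51 (SE 0.46, adjusted p 0.00292) and central nervous system by 1.65 (SE 0.46, adjusted p 0.0208), and the pair with epidermis did not pass (1.08, 0.06 to 2.09, adjusted p 0.162).

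**Figure D3:**
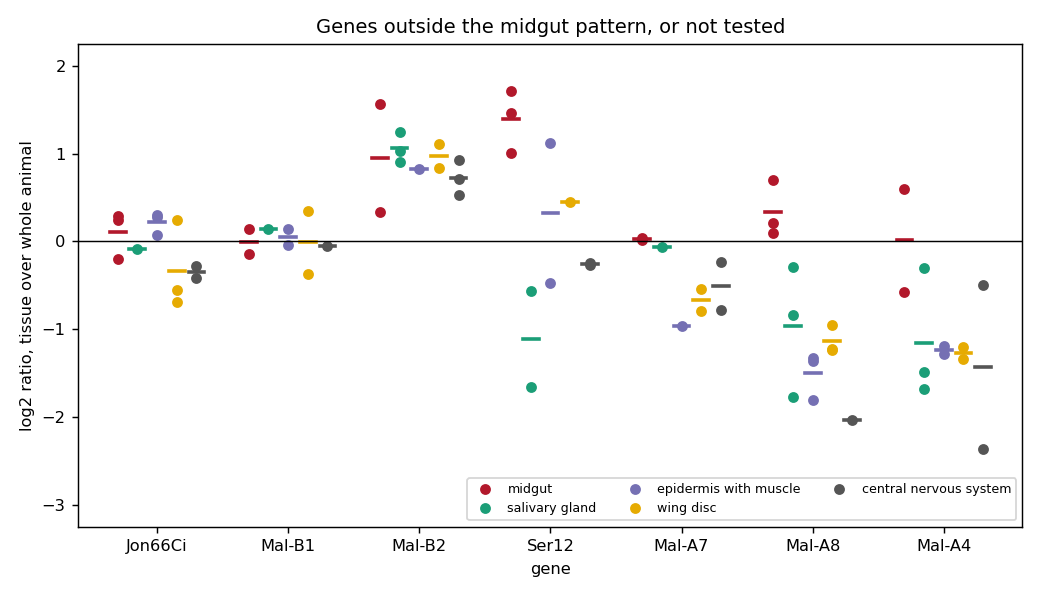
Log2 ratio of tissue over whole animal (vertical axis) on each array that measured the gene (points, coloured by tissue) for the genes outside the midgut pattern or not tested (horizontal axis). Points of Jon66Ci, Mal-B1 and Mal-B2 mix across tissues, with all 11 of Mal-B2 above 0, while the 3 midgut points of Mal-A8 lie above its other points.

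The amylase genes gave opposite patterns on different rows. Amy-d was at 0.48, 1.21 and 0.96 in midgut, -3.08, -3.67 and -2.94 in salivary gland, -3.07, -2.92 and -4.39 in epidermis, -4.39, -3.60 and -3.32 in wing disc, and -3.50, -4.22 and -3.75 in central nervous system. The midgut difference was 4.46 (SE 0.30, adjusted p 1.29e-08). Amy-p, averaged over its 2 rows, was 1.60 higher in midgut (SE 0.20, adjusted p 1.2e-05), and this average joins rows that disagree.

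The second Amy-p row followed Amy-d: 0.51, 1.24 and 1.01 in midgut, -3.22, -3.94 and -3.06 in salivary gland, -3.26, -2.92 and -4.32 in epidermis, -4.28, -3.60 and -3.36 in wing disc, and -3.63, -4.22 and -3.65 in central nervous system. It differed from Amy-d by a median of 0.07 and at most 0.27 over the 15 arrays (Pearson r 0.998, over arrays that share tissues), and its midgut difference was 4.54 (SE 0.29, adjusted p 6.41e-09). The first Amy-p row was at -1.30, -1.14 and -0.37 in midgut, -0.30, -0.68 and -0.91 in salivary gland, -0.35, 0.06 and 0.19 in epidermis, 1.06, 0.99 and 1.25 in wing disc, and 1.12, 1.20 and 1.14 in central nervous system. It was above whole animal on all 6 wing disc and central nervous system arrays and below it on all 3 midgut arrays. Midgut minus the mean of the other 4 was -1.33 (SE 0.20, adjusted p 9.79e-05), midgut minus wing disc -2.03 (adjusted p 1.77e-05), midgut minus central nervous system -2.09 (adjusted p 1.44e-05) and midgut minus epidermis -0.90 (adjusted p 0.022), and the pair with salivary gland did not pass (-0.30, adjusted p 0.549). The 2 Amy-p rows had r -0.642 and a median distance of 3.26. Which row reads the Amy-p transcript was not tested. Fitting the rows apart was chosen after seeing the data.

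**Figure D4:**
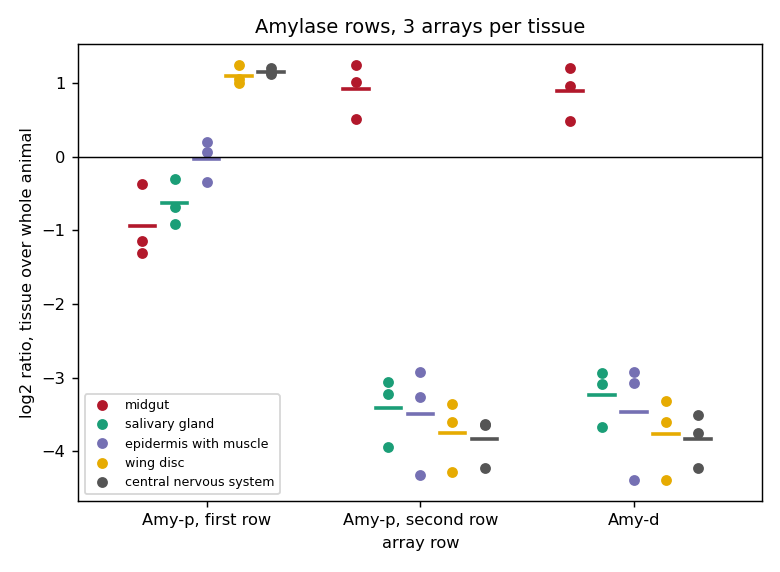
Log2 ratio of tissue over whole animal (vertical axis) for the 2 array rows annotated to Amy-p and the row of Amy-d (horizontal axis), 3 points per tissue, coloured by tissue. Midgut points are the highest in the second Amy-p row and in Amy-d, and lie at -1.30 to -0.37 in the first Amy-p row, where wing disc and central nervous system lie at 0.99 to 1.25.

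Relative to whole animal, 22 of the 38 genes rose in midgut (13.7% of features) and 0 fell (15.1%), with 24 and 0 at an unadjusted p of 0.05. By family the higher ones were 12 of 15 Jonah genes, 5 of 9 trypsins, 3 of 3 Ser genes, 1 of 2 Mal-B genes, 1 of 2 amylases and 0 of 7 Mal-A genes. Medians of the midgut means were 1.61 for Jonah genes (0.11 to 2.60), 1.30 for trypsins (-0.43 to 2.16), 1.40 for Ser genes, 0.44 for amylases and 0.03 for Mal-A genes (-0.74 to 0.67). The difference between families was not tested. Centring the arrays on the 4540 features measured on all 15, in place of all features, moved array medians by 0.03 to 0.32. Under it the mean changed sign for Amy-p and Mal-B1 in midgut, Jon66Ci and Mal-A7 in salivary gland and Mal-B1 in wing disc and central nervous system, all near 0 in these tissues, and with no centring for Mal-B1 in midgut. Among the Mal-A genes, Mal-A5 came nearest to the threshold (0.67, SE 0.32, adjusted p 0.128), and none of the 7 passed at an unadjusted p of 0.05 (Mal-A5, p 0.0524). The Jonah genes that did not pass were Jon66Ci (0.11), Jon44E (0.53, SE 0.44) and Jon99Ci (0.75, SE 0.35, adjusted p 0.123).

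In the other tissues the group lay below whole animal. It was lower in 32 of 36 genes in epidermis (12.5% of features), 33 of 35 in salivary gland (18.6%), 32 of 37 in wing disc (20.6%) and 32 of 36 in the central nervous system (21.3%). Higher than whole animal was 1 gene each in salivary gland (16.9%), in wing disc (18.4%) and in the central nervous system (19.8%), which was Mal-B2 in all 3. Jon65Aiii, for example, averaged 2.22 ± 0.11 in midgut and -3.77 ± 0.74 in salivary gland (SD, n = 3).

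Trypsin genes split by their place in the gene order. In the records of assembly Release 6, lambdaTry, kappaTry, zetaTry and etaTry stand next to each other at one end of a cluster of 9 genes on chromosome arm 2R, followed by thetaTry, alphaTry, epsilonTry, betaTry and gammaTry. The 4 at that end had midgut means of -0.43, 0.47, 0.60 and 0.87 relative to whole animal, and the next 4 had 2.16, 1.75, 1.94 and 1.30. iotaTry, beside deltaTry a little further on, was at 1.44. etaTry was the one of the first 4 that passed the test against whole animal (SE 0.20, adjusted p 0.00494), and betaTry the one of the others that did not (SE 0.55, adjusted p 0.0872). This split was seen in the values and has no test. The Mal-A genes, a run of 8 neighbours of which 7 were measured, had midgut means of 0.04, -0.22, -0.74, 0.01, 0.67, 0.03 and 0.34 from Mal-A1 to Mal-A8 without Mal-A6.

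Midgut replicate 2 held the highest midgut values of the measured Mal-A maltases except Mal-A7, which was at 0.04 on replicate 1 and 0.02 on replicate 2. On that array, all 5 Mal-A genes with 3 midgut values were at their highest, by 0.54 (Mal-A8) to 2.04 (Mal-A3) above the mean of replicates 1 and 3, with a median of 1.21. The trypsins at their highest there were lambdaTry (0.83), zetaTry (0.51), etaTry (0.50) and kappaTry (0.42), the same 4 that stand together at the end of the cluster. These 4 also had the lowest midgut means of the trypsins, so the match is no separate support for the split by gene order. The other 5 trypsins lay -0.09 (iotaTry) to -0.78 (epsilonTry) from the mean of the other replicates. Of the Jonah genes 5 of 15 were highest there, or 33.3%, led by Jon99Ci (1.07) and Jon25Bi (0.71). Another 6 were lowest there, and Jon65Ai lay furthest below the other replicates (-0.69). None of the 3 Ser genes and 1 of the 2 amylases (Amy-d, 0.48) were highest there. Over the group it was 15 of 34, or 44.1%, against 36.5% of all 8127 features with 3 midgut values, whose median deviation was 0.03, and 12 of 34, or 35.3%, were lowest there, against 27.5% of features. Across the 34 genes the deviation of replicate 2 was lower at higher midgut means (Pearson r -0.791), a description of genes that share the same 3 arrays, in which the mean holds replicate 2 itself. One sample differing from 2 others has no replicate of its own, and no test was made.

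**Figure D5:**
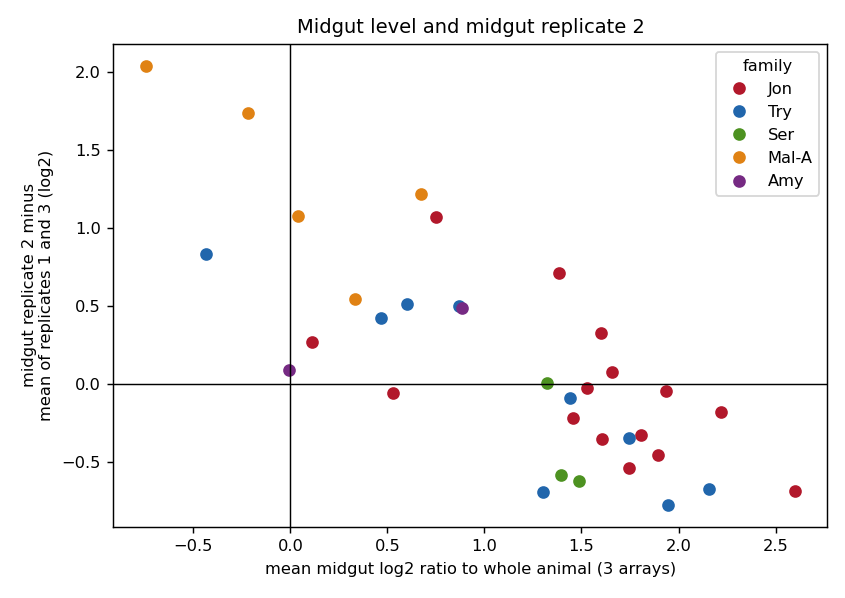
Midgut replicate 2 minus the mean of midgut replicates 1 and 3 in log2 units (vertical axis) against the mean midgut log2 ratio to whole animal (horizontal axis) for the 34 genes with 3 midgut values, coloured by family. The 5 Mal-A genes lie at the upper left, between 0.54 and 2.04, and the genes with midgut means above 1.5 lie mostly at or below 0.

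Calls between the tissues other than midgut were few, and counts this small show nothing particular to these genes. Among the 6 pairs of the other 4 tissues, salivary gland exceeded wing disc in 1 of 34 genes (8.28% of features), Jon25Bi by 1.22 (SE 0.39, adjusted p 0.04). In salivary gland over central nervous system 2 of 34 passed (7.73%), Jon99Ci by 1.74 (SE 0.50, adjusted p 0.0217) and Jon65Aiv by 1.24 (SE 0.33, adjusted p 0.0144). The reverse of these pairs had 0 calls (10% and 11.5% of features). In the 4 remaining pairs 0 genes were called in either direction, where 6.75% and 3.8% of features were higher and lower in epidermis than in salivary gland, 6.91% and 4.17% than in wing disc and 8.41% and 7.02% than in the central nervous system, and 2.29% and 3.24% in wing disc than in the central nervous system. At an unadjusted p of 0.05 these 4 pairs held 0 to 5 genes in a direction. Salivary gland then exceeded wing disc in 5 of 34 genes and central nervous system in 6 of 34, with 1 gene in each reverse direction. Among the 31 genes of the midgut pattern the second highest mean was in salivary gland for 19, in wing disc for 7, in epidermis for 3 and in central nervous system for 2. The shares over all features were not computed, so this order cannot be called particular to the group. In salivary gland the 3 fat body markers had means of -0.65 to -0.03, and their part in this order was not tested. Over all 5 tissues, 30 of 32 genes passed the F test (44.5% of features), and Mal-A2 (adjusted p 0.0999) and Mal-A4 (0.258) did not.

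Set against the mean of the remaining 4 tissues, midgut included, 0 genes were higher in epidermis (8.11% of features), in salivary gland (7.72%), in wing disc (9.48%) or in the central nervous system (12%), also at an unadjusted p of 0.05. Lower were 20 of 32 in epidermis (3.63% of features), 9 in salivary gland (10.3%), 18 in wing disc (10.3%) and 18 in central nervous system (10.2%). The epidermis count rested on replicate 3, the array that stood apart: without it 5 genes were lower in epidermis and 15 in salivary gland, and without salivary gland replicate 1 there were 3 in salivary gland. With the arrays scaled to a common spread 0 genes were lower in wing disc and 8 in central nervous system, and with array weights 15 were lower in salivary gland.

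Other genes of digestion were mostly higher in midgut too. From a list of 35 further digestive enzymes 21 of 26 tested genes were higher in midgut than the mean of the other 4 tissues and 1 was lower, against 14.2% and 15.5% of all features, with a median difference of 2.56. The largest were the lysozymes LysE (5.94), LysS (5.87), LysD (5.53) and LysB (5.20), of which LysB, LysD and LysE are close copies, and Gal, a beta-galactosidase gene, was lower (-1.40, SE 0.25, adjusted p 0.000438). From a further list of midgut genes, drawn mostly from regulators, transporters and unnamed genes but holding the chitinase gene Cht2 and the peptidase gene Ance, 7 of 11 were higher, 1 was lower and the median was 2.09, beside the same shares of all features, led by CG7916 (5.57), CG8997 (5.17), CG9673 (5.11) and CG7953 (4.98), while Cht2 was lower (-1.04). These 4 largest are all unnamed genes. What the unnamed genes encode was not checked, so the list may hold further enzymes. The lists were chosen with earlier results of these data known, so their counts are no independent support.

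Serine proteases with roles outside digestion, and serpins, were called in small numbers. Of 12 such proteases tested, 2 were higher in midgut, 2 were lower and the median difference was -0.21, counts near the 14.2% and 15.5% of all features. Higher were snk (2.30), a protease of the cascade that sets the dorsoventral axis of the embryo, and psh (0.70), which activates the Toll pathway in immunity, and lower were Sp7 (-1.09) and Hayan (-0.73), both of the melanization response. Of 14 tested serpins, which inhibit serine proteases, 3 were higher, 4 were lower and the median was -0.35, beside the same 14.2% and 15.5% of features, and counts this small show nothing particular to the list. The largest were Spn42Dc (2.10) and Spn55B (1.85) upward and Spn27A (-1.63), an inhibitor of melanization and of the embryonic axis cascade, and Spn77Ba (-1.45) downward.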

How the data were processed

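Each array set amplified RNA of 1 tissue (Cy5) against whole animals (Cy3), with 3 independent samples per tissue and no dye swap, per the labels' protocols. What the authors deposited is a table of log2 ratios with a column for each array. The scale was read from the values. At least 892 pairs per array differed by exactly 1 and at most 2 by the natural logarithm of 2. A constant was fitted for each array (-0.586 to -0.03 log2 units). With it added, low ratios stood at whole steps of 0.001 (within 0.02 of a step for 100% of values under 100 steps). For the scanner, background correction, normalization, empty cells and genome build, the sources used here give no details, and no coordinates are printed.

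Of 14051 measured rows out of 20000, 10817 named 1 gene, 227 several and 3007 none, and 10813 matched a current gene record. Arrays were centred on their medians and several rows of the same gene were averaged, leaving 13128 features. All 38 genes matched a record. limma 3.58.1 (R 4.3.3) fitted 1 mean per tissue over 15 arrays with empirical Bayes variances (prior SD 0.338, prior degrees of freedom 5.965). A feature entered where at least 2 arrays of each tissue needed had a value. The comparisons were midgut against the mean of the other 4 tissues and against each of them, each other tissue against the mean of the remaining 4, pairs of these, an F test, and each tissue against whole animal (ratio against 0), which leaves out the spread of the reference. Adjusted p-values are Benjamini-Hochberg values over all features of a comparison, with a threshold of 0.05. Intervals are 95% intervals of the fit. The script was tested on simulated data. Tables came from pandas 2.3.3 under python 3.11.15.

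Values in every sample are given for genes outside the midgut pattern and for the 4 of each family with the largest midgut difference. From the lists (other digestive enzymes, other serine proteases, serpins, further midgut genes, tissue markers) the 4 largest past the test are named, and outside the group the 5 highest genes. Other genes were named after their values were seen. The genes and the lists were chosen with earlier results of these data known. Alternatives changed the centring, scaling, filter, rows per gene, weights, variance model, replicate block, minimum difference and arrays left out, and fitting rows apart was added after seeing the data.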

Additional observations from a re-analysis of the deposited data

Results flagged for a closer look

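The first array row of Amy-p, an amylase gene, ran against the rest of the group. Midgut was lower than epidermis by a difference of -0.90 log2 units, lower than wing disc by -2.03 and lower than central nervous system by -2.09, each past the test of that pair, while the second Amy-p row and Amy-d were highest in midgut.

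The array row annotated to CG30031, deltaTry and gammaTry together lies outside the single-gene rows of the comparisons. It was 5.61 log2 units higher in midgut than the mean of the other 4 tissues.

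In 27 of the 38 genes every measured midgut array was above whole animal and every other measured array was below it, against 4.11% of features with at least 1 midgut and 1 other value. The 27 include genes measured on fewer arrays, such as Mal-A7 with midgut values of 0.04 and 0.02. Opposite directions on this scale were not tested as such.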

How the results depend on the processing

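Wherever an alternative could be fitted, the genes of the midgut pattern other than Amy-p kept a higher value in midgut, and the calls that changed were those of Mal-A2 and Mal-A4. The first Amy-p row alone, which is also the row kept when 1 row per gene is taken, gave -1.33 against 1.60 for the mean of both rows. Mal-A2 (adjusted p 0.0479) was lost in 6 of its 20 alternatives, with adjusted p from 0.00998 to 0.197, and Mal-A4 (0.0571) passed with arrays scaled to a common spread (0.0497), with array weights (0.0445) and in 2 fits without an array. Scaling left 0 genes lower in wing disc and 8 in central nervous system, against 18 each. Array weights gave 15 genes lower in salivary gland against 9, and 3795 features called for midgut against 2506, where a minimum difference of 1 log2 unit left 1322 features. Restricting the data to features on all 15 arrays left 0 genes highest in another tissue against 3, since none of the 3 was measured on all arrays, and the other alternatives gave 2 to 4. The cause of the other changes was not tested.

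Leaving out 1 array at a time gave 28 to 32 genes higher in midgut, where the number that could be tested also ran from 28 to 32. Genes lower in epidermis ran from 5 (without epidermis replicate 3) to 23, and in salivary gland from 3 (without its replicate 1) to 15 (without epidermis replicate 3). Against whole animal, calls lost under another centring or scaling were those of Ser7, Ser12, Mal-A4, Mal-A7 and Amy-d in at least 1 tissue, and Mal-B2 stayed past the test in its 4 tissues.

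Whether replicate numbers pair the samples was not tested. Correlations of deviations from the tissue means, over 4540 features, ran from -0.49 to 0.35 (median 0.03) for 30 same-numbered pairs. For 60 others they ran from -0.43 to 0.58 (median -0.03). Of the same-numbered pairs 11 were over 0.1, and of the others 13. With the replicate block 31 of 32 genes were higher in midgut and 2544 features were called.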
